A study of Caenorhabditis elegans with 6 samples.

Results

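The genes of the proteasome, the cell's main machine for degrading proteins tagged with ubiquitin, were compared between intestinal and non-intestinal cells of first-stage Caenorhabditis elegans larvae. They were taken as every row of the count table whose symbol was pas-, pbs-, rpt- or rpn- followed by a number. This gave 32 of 14605 worm genes, of which 13 encode the core particle and 19 the regulatory particle. RefSeq names 33 such genes, and pas-1 was not analysed here. The libraries were made from pools of 500 cells with 4N DNA content, in 3 libraries of intestinal cells and 3 libraries of other cells that divide in the same larval stage. All 6 came from animals with the transgene ccyIS27, in which elt-2p, the promoter of the intestinal transcription factor gene elt-2, drives mCherry-PH and, after a P2A site, H2B-mCherry, which are red fluorescent membrane and histone reporters. The non-intestinal group is a mixture of cell types by its label, and the adapted CEL-seq protocol counts the 3′ ends of transcripts.

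In the core particle, alpha subunits form the outer rings that gate entry and beta subunits form the inner rings, where PBS-1, PBS-2 and PBS-5 are the counterparts of the catalytic subunits of yeast and mammals. The regulatory particle binds ubiquitin chains, removes them and threads the substrate into the core. Its base holds the RPT ATPases, the scaffolds RPN-1 and RPN-2 and the ubiquitin receptors RPN-10 and RPN-13, and its lid holds the deubiquitinase RPN-11 among scaffold subunits. In worms, the transcription factor SKN-1A raises the transcription of proteasome subunit genes when proteasome function is impaired.

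The libraries held between 1222704 and 21040813 counts of worm genes, with the fewest in replicate 3 of both groups. Where a gene had 0 counts, its true level could still reach 3 counts, equal to 0.136 to 2.40 CPM over the libraries (counts relative to a library's TMM-scaled total, as for each CPM given here). For elt-2 the intestinal libraries gave 512, 662 and 74 counts and the other libraries 1, 38 and 0, in the order of their replicate numbers, which also holds for the values below, so the libraries matched their group labels. The summed level of 14 intestinal markers was 6676 to 7468 CPM in the intestine, against 52.4 to 199 CPM outside it, where ftn-1 was at 0. For 15 germline markers it was 177 to 518 against 1983 to 2902 CPM, with nos-2 at 0 in intestinal libraries. For 16 muscle markers it was 1019 to 5623 against 2934 to 11867 CPM, with myo-3 at 0 in intestinal libraries. For 13 epidermal and seam markers it was 48.7 to 151 against 386 to 460 CPM, with dpy-13 at 0 in intestinal libraries, and for 15 neuronal markers 424 to 984 against 423 to 627 CPM. In the edgeR test described below, 13 of 13 tested intestinal markers were higher and 12 of 14 germline markers lower in intestinal cells. Of 15 tested muscle markers 0 were called in either direction. Among 9 tested epidermal and seam markers 1 was higher and 1 lower, and among 15 neuronal markers 2 were higher and 0 lower. The shares of all tested genes were 13.5% higher and 7.64% lower. The part of this mixture of cells in the values below was not tested. In pools of cells, fewer cells of a type and less RNA per cell cannot be told apart.

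Differences are given as the log2 ratio, the fitted log2 fold change of intestinal over non-intestinal cells. Among the 32 proteasome genes, rpn-13 alone passed the test, and it was 4.13-fold higher in intestinal cells. The other 31 were not called in either direction, although 30 of them had a log2 ratio below 0, as had 57.2% of all tested genes. All 32 genes passed the filter on low counts. The test was the quasi-likelihood F test of edgeR, fitted over 9203 genes and called at a Benjamini-Hochberg adjusted p under 0.05. Over all genes tested it called 21.2%, with 13.5% higher and 7.64% lower in intestinal cells, and 1 of 32 proteasome genes is below that share. At an unadjusted p under 0.05 there were 2 proteasome genes, rpn-13 and rpn-11, where the share of all tested genes was 34.5%. DESeq2 called 1 proteasome gene and 31% of all genes. These fits did not pair the libraries. With the replicate number as a block, edgeR called 2 proteasome genes, rpn-13 and rpt-1, and 25% of all tested genes. In the edgeR fit without the block, standard errors of the members' log2 ratios lay between 0.45 and 1.37. For 19 of the 31 uncalled genes the 95% interval excluded a difference of 4-fold or more in both directions, and for 0 of them did it exclude a 2-fold difference in both directions. The lack of a call therefore does not show equal levels. For each uncalled gene a 2-fold difference in at least 1 direction remained possible with these 6 libraries.

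**Figure D1:**
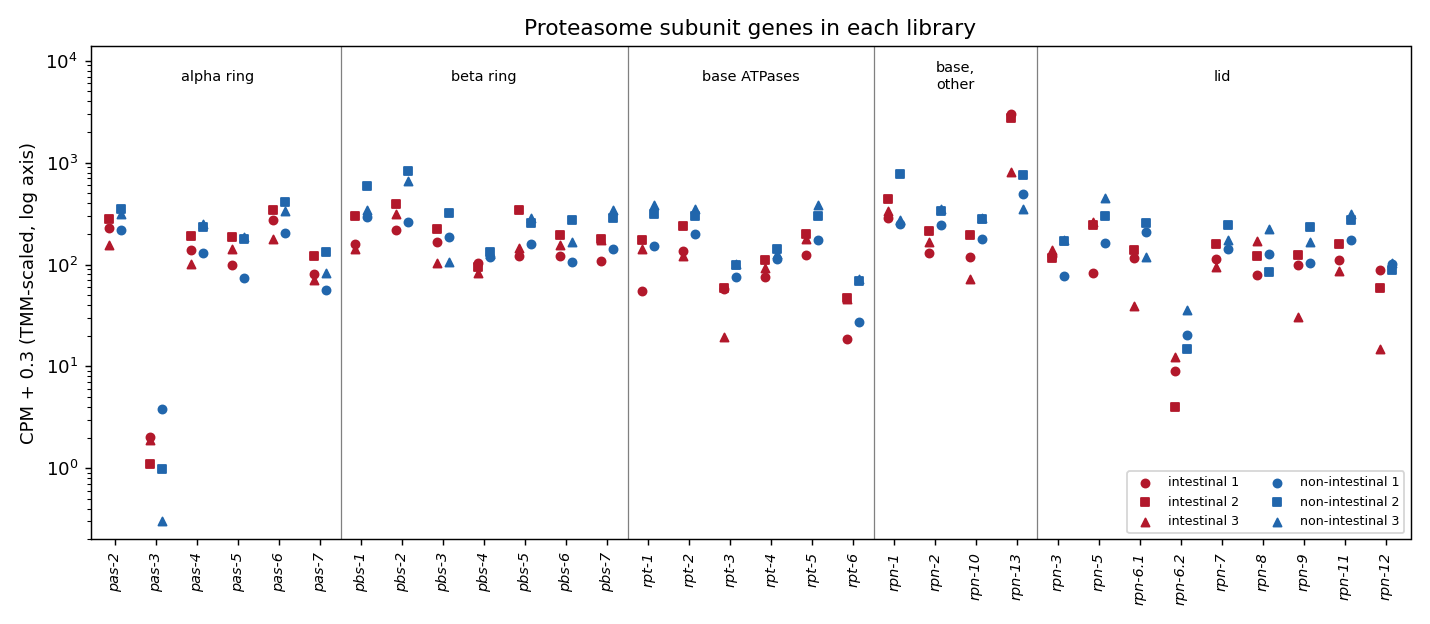
Level of each proteasome subunit gene in each library, as TMM-scaled CPM plus 0.3 on a log axis, in the order of the subunits' place in the complex. Colours mark intestinal (red) and non-intestinal (blue) libraries and symbols mark the replicate number. The intestinal values of rpn-13, from 813 to 3037 CPM, lie above its non-intestinal values, while the groups overlap for 24 of the 32 genes.

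The CPM of the 2 groups did not overlap for 8 of the 32 genes, where the share of all tested genes was 45.4%, with 21.9% higher and 23.5% lower in intestinal cells. Of these 8, rpn-13 was higher and pbs-4, rpt-3, rpt-4, rpn-2, rpn-6.2, rpn-11 and rpn-12 were lower in each intestinal library. When libraries with the same replicate number were set against each other, 23, 27 and 29 of the 32 genes were lower in the intestinal library of pairs 1, 2 and 3. For all tested genes the share was 54.5%, 50.5% and 56.9%. In all 3 pairs 20 genes were lower, 5 of 13 in the core and 15 of 19 in the regulatory particle, where 36.1% of all tested genes were. Non-intestinal replicate 1 had the lowest non-intestinal value for 25 of the 32 genes, and intestinal replicate 3 had the lowest intestinal value for 16.

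Of the 5 subunit groups, the alpha ring had the median log2 ratio nearest 0. It was −0.18, against −0.34 for all tested genes, and the values ran from −0.52 for pas-4 to 0.01 for pas-7. No alpha gene was called (0 of 6 by edgeR, 0 at an unadjusted p under 0.05, 0 by DESeq2). The level of pas-7 (ZK945.2) was 80.6, 121 and 69.5 CPM in intestinal replicates 1, 2 and 3, against 56.1, 131 and 82.9 CPM outside the intestine. The groups overlapped fully, with a log2 ratio of 0.01 ± 0.56 (SE; adjusted p = 0.99 by edgeR). The level of pas-5 (F25H2.9) was 98.9, 186 and 141 CPM in the intestine, against 74.2, 178 and 188 CPM outside it. Its log2 ratio was −0.04 ± 0.54 (SE; adjusted p = 0.96 by edgeR). For pas-5 replicate 1 was the lowest library of each group. The gene pas-2 had a log2 ratio of −0.40 and pas-6 of −0.25.

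The alpha subunit gene pas-3 (Y110A7A.14) stood apart by its low level. Its counts were 21, 14 and 2 in the intestine and 22, 15 and 0 outside it. Apart from pas-3 and rpn-6.2, each proteasome gene had at least 18 counts in each library, and the highest count was 48313, for rpn-13 in intestinal replicate 2. With so few counts the 95% interval of the log2 ratio of pas-3 ran from −3.13 to 2.92. The annotation of WBcel235 shows no other coding gene across pas-3 (chromosome I, 5105110 to 5106048, minus strand). On the same strand, chp-1 begins 198 bases beyond the 3′ end of pas-3, and its log2 ratio was −0.32. The low count of pas-3 in all 6 libraries was not followed further.

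Among the beta ring genes the median log2 ratio was −0.43, and 7 of 7 values were negative, from −1.03 for pbs-1 to −0.19 for pbs-5. No beta gene was called (0 of 7 by edgeR, 0 at an unadjusted p under 0.05, 0 by DESeq2). The fitted log2 ratios of the 3 genes of the catalytic subunits ran from −1.03 to −0.19. Their 95% intervals overlapped, and differences between them were not tested. The level of pbs-1 (K08D12.1) was 160, 297 and 142 CPM in the intestine, against 295, 588 and 346 CPM outside it. Each intestinal library of pbs-1 was lower than the non-intestinal library of the same number, but intestinal replicate 2 was above non-intestinal replicate 1. Its log2 ratio was −1.03 ± 0.50 (SE; adjusted p = 0.17 by edgeR). For pbs-2 (C47B2.4) the levels were 218, 393 and 314 against 260, 823 and 663 CPM, with a log2 ratio of −0.92 ± 0.51 (SE; adjusted p = 0.23 by edgeR). For pbs-5 (K05C4.1) they were 121, 346 and 145 against 159, 253 and 287 CPM, with a log2 ratio of −0.19 ± 0.54 (SE; adjusted p = 0.83 by edgeR). Thus pbs-5 was higher in the intestinal library of pair 2 and lower in the other pairs. Of the remaining beta genes, pbs-7 had a log2 ratio of −0.73, pbs-4 of −0.43, pbs-3 of −0.32 and pbs-6 of −0.21.

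The ATPases of the base, which unfold the substrate, had 6 of 6 log2 ratios below the median of all tested genes, with a median of −0.78. Of these ATPases 0 were called by edgeR, 0 had an unadjusted p under 0.05 and DESeq2 called 0. The lowest was rpt-1 (C52E4.4), with 54.5, 173 and 141 CPM in the intestine, against 151, 315 and 380 CPM outside it. Only the non-intestinal replicate 1 lay within the range of the intestinal libraries. Its log2 ratio was −1.20 ± 0.58 (SE; adjusted p = 0.17 by edgeR). With the replicate number as a block, rpt-1 was called, with a log2 ratio of −1.25 (adjusted p = 0.039 by edgeR), in a fit that called 25% of all tested genes, with 9.84% of the tested genes lower. The gene rpt-3 had a log2 ratio of −1.01, rpt-2 of −0.79, rpt-5 of −0.76, rpt-6 of −0.60 and rpt-4 of −0.45.

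The remaining base genes held both the called gene and genes with a lower fitted level. The ubiquitin receptor gene rpn-13 (C56G2.7) was counted 36653, 48313 and 1018 times in the intestine, against 3066, 16854 and 652 times outside it. As CPM this was 3037, 2775 and 813 in intestinal and 487, 764 and 353 in non-intestinal libraries. The groups did not overlap, but intestinal replicate 3 was only slightly above non-intestinal replicate 2. The means were 2208 ± 1215 and 535 ± 209 CPM (SD, n = 3 each), with a log2 ratio of 2.05 ± 0.53 (SE, 95% interval 0.87 to 3.22, edgeR's adjusted p = 0.021). The call was lost without intestinal replicate 1 (adjusted p = 0.073 by edgeR) and without intestinal replicate 2 (adjusted p = 0.052 by edgeR), while the log2 ratio stayed between 1.77 and 2.65 in the 6 fits that left out 1 library. The share of rpn-13 in the summed CPM of the 32 genes was 45.6%, 33.0% and 17.7% in intestinal and 9.83%, 8.46% and 4.63% in non-intestinal libraries.

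The position of rpn-13 bears on what its row counts. The gene lies on the minus strand of chromosome III, at 6340113 to 6341928 of WBcel235. The gene let-767, which encodes an enzyme of fatty acid elongation, begins 143 bases beyond its 3′ end on the same strand, at 6338508 to 6339969. Counts of let-767 were not analysed here, and whether reads of let-767 entered the row of rpn-13 was not tested, so the value of rpn-13 is uncertain to that extent. The annotation places a coding gene of the same strand within 500 bases of the 3′ end for 11 of the 32 proteasome genes, a distance chosen after the values were seen. The neighbours of 9 of the 11 were tested, with log2 ratios from −1.94 to 1.58. By edgeR 0 of them were called, at adjusted p from 0.12 to 0.71. The neighbours of the called gene rpn-13 (let-767) and of rpn-1 (T22D1.8) are not among these 9 and were not analysed here, so these values say nothing of the row of rpn-13.

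The other ubiquitin receptor gene, rpn-10 (B0205.3), went the opposite way in its fitted value. Its levels were 119, 196 and 71.9 CPM in the intestine, against 176, 282 and 288 CPM outside it, with a log2 ratio of −0.94 ± 0.52 (SE; adjusted p = 0.23 by edgeR). The 95% intervals of rpn-13 (0.87 to 3.22) and rpn-10 (−2.09 to 0.21) did not overlap. Those of the scaffold genes rpn-2 (−1.86 to 0.13) and rpn-1 (−1.47 to 0.85) also lay below that of rpn-13. Contrasts between genes were not tested. The scaffold gene rpn-2 (C23G10.4), whose product holds RPN-13 in the complex, had 129, 213 and 166 CPM in the intestine, against 241, 337 and 349 CPM outside it. Each non-intestinal library of rpn-2 was above each intestinal library, with a log2 ratio of −0.87 ± 0.45 (SE; adjusted p = 0.20 by edgeR). The scaffold gene rpn-1 (T22D1.9) overlapped between the groups, with a log2 ratio of −0.31 (adjusted p = 0.71 by edgeR).

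**Figure D2:**
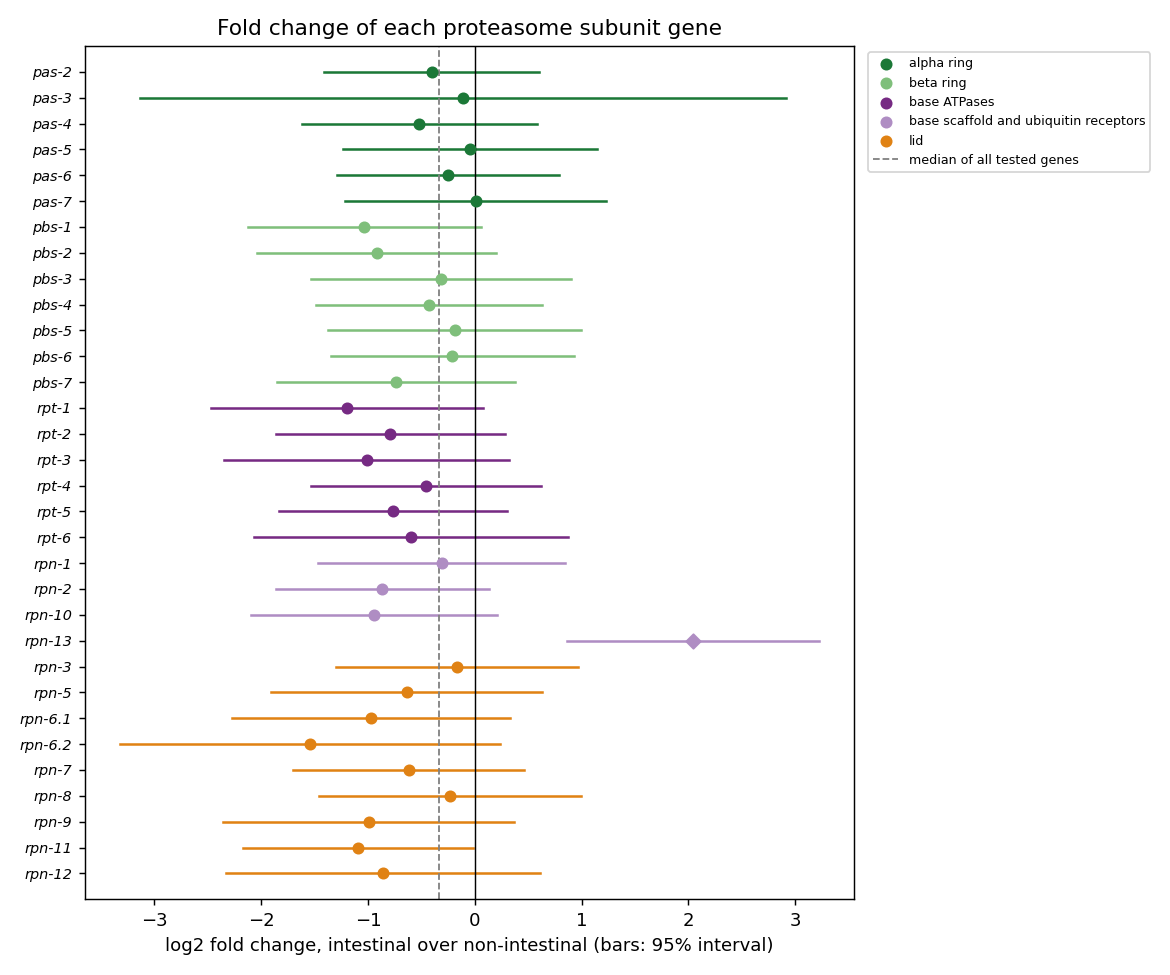
Log2 ratio of each proteasome subunit gene, intestinal over non-intestinal, with its 95% interval from the edgeR fit. Colours mark the part of the complex, the diamond marks the called gene and the dashed line marks −0.34, the median of all tested genes. The interval of rpn-13 lies above 0, that of rpn-11 ends just below 0, and the other 30 include 0.

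The lid genes had the lowest median log2 ratio of the 5 subunit groups, −0.86, and 9 of 9 values were negative. Of the lid genes 0 were called by edgeR, 1 had an unadjusted p under 0.05 and DESeq2 called 0. That gene was rpn-11 (K07D4.3), the deubiquitinase that cuts ubiquitin chains off the substrate. Its levels were 111, 157 and 85.5 CPM in the intestine, against 174, 270 and 313 CPM outside it, so that the groups did not overlap. Its log2 ratio was −1.09 ± 0.49 (SE, 95% interval −2.17 to −0.02, edgeR's adjusted p = 0.14). The gene of its partner subunit, rpn-8, had a log2 ratio of −0.23 (adjusted p = 0.79 by edgeR).

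The lid contains a pair of paralogous genes, rpn-6.1 and rpn-6.2, for a scaffold subunit that contacts the alpha ring. The gene rpn-6.2 (F59B2.5) was counted 105, 65 and 15 times in the intestine, against 127, 323 and 65 times outside it. As CPM this was 8.70, 3.73 and 11.98 against 20.2, 14.6 and 35.2, with each intestinal library below each non-intestinal one. Its log2 ratio of −1.54 ± 0.81 (SE; adjusted p = 0.20 by edgeR) was the lowest of the 32. The gene rpn-6.1 (F57B9.10) had 115, 140 and 39.1 CPM in the intestine, against 207, 254 and 118 CPM outside it. Its log2 ratio was −0.97 ± 0.59 (SE; adjusted p = 0.27 by edgeR). Counting could have divided reads between related genes, so their separate values are uncertain. The remaining scaffold genes rpn-9, rpn-12, rpn-5, rpn-7 and rpn-3 had log2 ratios of −0.99, −0.86, −0.64, −0.62 and −0.17. Intestinal replicate 3, the shallowest library, had 18 counts of rpn-12 and 38 of rpn-9, and its levels of 14.4 and 30.4 CPM were the lowest for both.

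Set side by side, the core had a median log2 ratio of −0.32 and the regulatory particle of −0.79, or −0.83 without rpn-13. Relative to the median of all tested genes these were 0.02, −0.45 and −0.49. In the core 6 of 13 genes lay below that median, and in the regulatory particle 15 of 19, where 50% of all tested genes do by definition. Of 13 core genes 0 were called by edgeR, with 0 at an unadjusted p under 0.05 and 0 by DESeq2. Without non-intestinal replicate 2 the core median was 0.11 and the regulatory median −0.42, while the median of all tested genes moved to 0.06, so that relative to it they were 0.05 and −0.48. Over the 6 fits that left out 1 library, the core lay −0.30 to 0.10 and the regulatory particle −0.77 to −0.20 from the median of all tested genes, both lowest without non-intestinal replicate 1. Under library totals alone, with no scaling factors, the median of all tested genes fell to −0.84 and 5 proteasome genes were called. These were rpn-13, higher, and pbs-1, rpn-2, rpn-10 and rpn-11, lower, in a fit that called 26% of all tested genes, 14.4% lower. Of all calls 44.4% were then higher in intestinal cells, against 63.9% with TMM scaling.

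Sums over the genes depended on rpn-13. Core genes summed to 1818, 2846 and 1765 CPM in intestinal replicates 1, 2 and 3 and to 1951, 3978 and 3203 CPM in the non-intestinal replicates. Regulatory genes without rpn-13 summed to 1811, 2790 and 2011 CPM against 2516, 4282 and 4081 CPM. Both sums were lower in the intestinal library of each pair, and both overlapped between the groups. The ratio of the core sum to this regulatory sum, which does not depend on the scaling of libraries, was 1.0, 1.02 and 0.878 in intestinal and 0.776, 0.929 and 0.785 in non-intestinal libraries. It was higher in the intestinal library of each pair, and intestinal replicate 3 was below non-intestinal replicate 2. With rpn-13 included the ratio was 0.375, 0.511 and 0.625 against 0.650, 0.788 and 0.722, in the opposite direction and with no overlap. These sums were not tested.

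**Figure D3:**
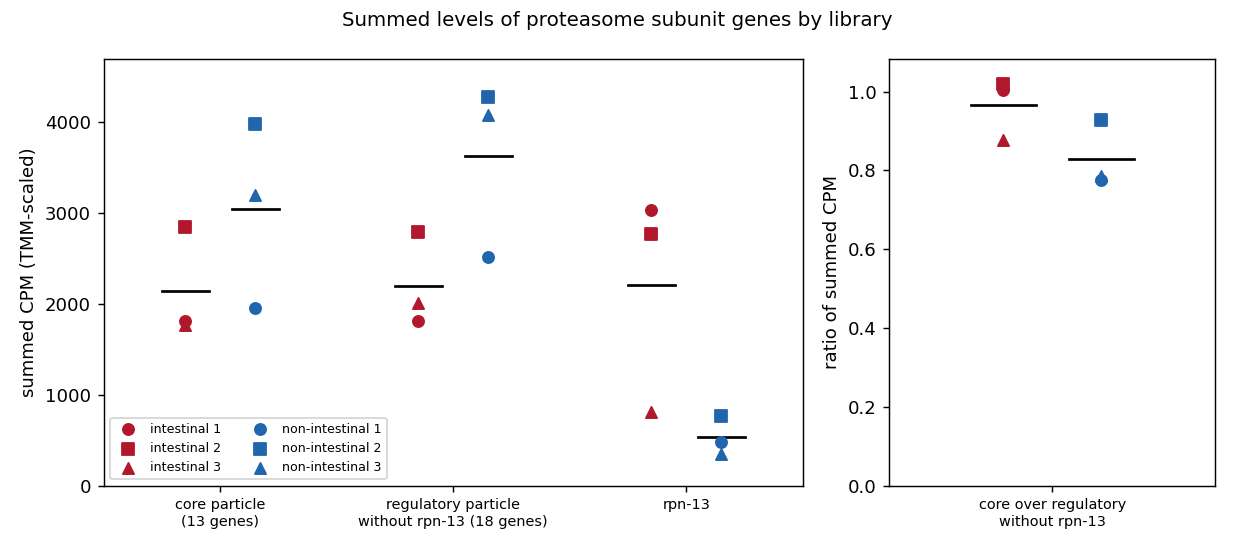
Summed TMM-scaled CPM of the core genes, of the regulatory genes without rpn-13 and of rpn-13 alone in each library (left), and the ratio of the first sum to the second (right). Colours mark the groups, symbols the replicate number and black lines the group means. Core sums average 2143 CPM in the intestine, against 3044 CPM outside it, and the groups overlap in all measures shown but rpn-13.

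The proteasome genes lie on chromosomes I (10 genes), II (7), III (8), IV (3) and V (4), and none of the 32 is on X. For 9 of them the annotated 3′ end lies inside another coding gene: pas-7, pbs-3, pbs-4, pbs-7, rpn-7, rpn-10, rpn-11, rpt-2 and rpt-6. For pbs-7 that gene, K07A12.5, lies on the same strand, and for the others on the opposite strand. The strand setting of the counting is not given in the sources used here, so the values of the others may hold reads of their neighbours, and that of pbs-7 may whatever the setting. The gene rpn-12 (chromosome II, 11653124 to 11654192, plus strand) starts 394 bases from rad-23 (11651262 to 11652729, minus strand), which encodes a shuttle that carries ubiquitinated proteins to the proteasome. The levels of rad-23 were 255, 289 and 211 CPM in the intestine, against 327, 599 and 175 CPM outside it. Its log2 ratio was −0.54 (adjusted p = 0.48 by edgeR), beside −0.86 for rpn-12 (adjusted p = 0.39 by edgeR).

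Proteins that work on or beside the proteasome were covered by 8 genes. By edgeR 0 of the 8 were called, 0 had an unadjusted p under 0.05 and DESeq2 called 0, with a median log2 ratio of −0.37. The gene ubh-4, for the worm counterpart of the human deubiquitinase UCHL5 that docks on RPN13, had 95.8, 50.6 and 25.6 CPM in the intestine, against 106, 48.7 and 33.6 CPM outside it. Its log2 ratio was −0.12 ± 0.69 (SE; adjusted p = 0.92 by edgeR). The 95% interval of ubh-4, −1.64 to 1.39, overlapped that of rpn-13 (0.87 to 3.22). Whether the 2 genes differ was not tested. The shuttle gene ubql-1 had 381, 348 and 220 CPM in the intestine, against 118, 204 and 163 CPM outside it. The groups did not overlap for ubql-1, with a log2 ratio of 0.97 ± 0.47 (SE; adjusted p = 0.17 by edgeR).

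The 7 genes of the SKN-1A route were measured as well. SKN-1A is made at the endoplasmic reticulum, taken out by SEL-1, SEL-11 and CDC-48, edited by the glycanase PNG-1 and cut by the protease DDI-1. By edgeR 0 of the 7 were called, 0 had an unadjusted p under 0.05 and DESeq2 called 0. The level of skn-1, over all its isoforms, was 494, 186 and 89.5 CPM in the intestine, against 255, 136 and 178 CPM outside it. Replicate 3 went against the other pairs, and the log2 ratio was 0.44 ± 0.62 (SE; adjusted p = 0.65 by edgeR). The gene ddi-1 had a log2 ratio of −1.07 and png-1 of 0.45. For sel-1 and sel-11 the values were 0.36 and 0.56. The segregase genes cdc-48.1 and cdc-48.2, which are closely related paralogs with uncertain separate counts, had −0.14 and −1.08.

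Further upstream, the list of ubiquitin and of activating and conjugating enzymes for it or its relatives had 22 tested genes. Their median log2 ratio was −0.53. By edgeR 0 of them were called, 2 had an unadjusted p under 0.05 and DESeq2 called 3, namely uba-2, which encodes a subunit of the activating enzyme for the ubiquitin relative SUMO, ubc-14 and uev-3. The 10 genes of CDC-48 cofactors, which help pull proteins out of complexes, had a median of −1.20. By edgeR 0 of the 10 were called, 3 had an unadjusted p under 0.05 and DESeq2 called 3, namely ufd-3, ubxn-3 and atx-3. For both lists, the shares of all tested genes were 21.2%, 34.5% and 31%, in that order.

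Cullin ligases attach ubiquitin to chosen proteins, and their list held the 2 genes of the related lists that edgeR called. The median log2 ratio of the list was −0.41. Among its 21 tested genes, edgeR called 1 higher and 1 lower. Of all tested genes 21.2% were called, with 13.5% higher and 7.64% lower. An unadjusted p under 0.05 was found for 4 of the 21, and for 34.5% of all tested genes. DESeq2 called 3, namely skr-2, skr-3 and sel-10, and 31% of all genes. Both genes of the list that edgeR called encode SKP1-related adaptors. The gene skr-2 (F46A9.4) had 11.5, 66.5 and 29.6 CPM in the intestine, against 332, 975 and 606 CPM outside it. Each intestinal library was far below each non-intestinal one, with a log2 ratio of −4.15 ± 0.73 (SE; adjusted p = 0.0033 by edgeR). The gene skr-3 (F44G3.6) had 155, 82.8 and 99.8 CPM in the intestine, against 7.95, 12.5 and 11.9 CPM outside it. It was higher in intestinal cells with a log2 ratio of 3.39 ± 0.62 (SE; adjusted p = 0.0039 by edgeR). Their relative skr-1 had a log2 ratio of −0.14 (adjusted p = 0.87 by edgeR). These adaptors are similar in sequence, so reads could have been divided between them. With any 1 of the 6 libraries left out, skr-2 and skr-3 were still called.

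Other large complexes of the cytosol gave a scale for the proteasome values. The COP9 signalosome and eIF3 are built from subunits related to those of the proteasome lid, and the CCT chaperonin folds actin and tubulin. The median log2 ratio was −0.63 for 6 COP9 signalosome genes, −0.03 for 11 eIF3 genes and −0.31 for 8 CCT genes. By edgeR 0 genes of each were called. At an unadjusted p under 0.05 there were 2, 0 and 0 genes, and DESeq2 called 1, 0 and 0, in that order. The 1 gene was csn-3, with a log2 ratio of −1.70 (adjusted p = 0.084 by edgeR). Of all tested genes 34.5% had an unadjusted p under 0.05, and DESeq2 called 31%. The regulatory particle median of −0.79 was below the medians of these 3 complexes and the core median of −0.32 was near that of CCT, and the differences between lists were not tested.

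**Figure D4:**
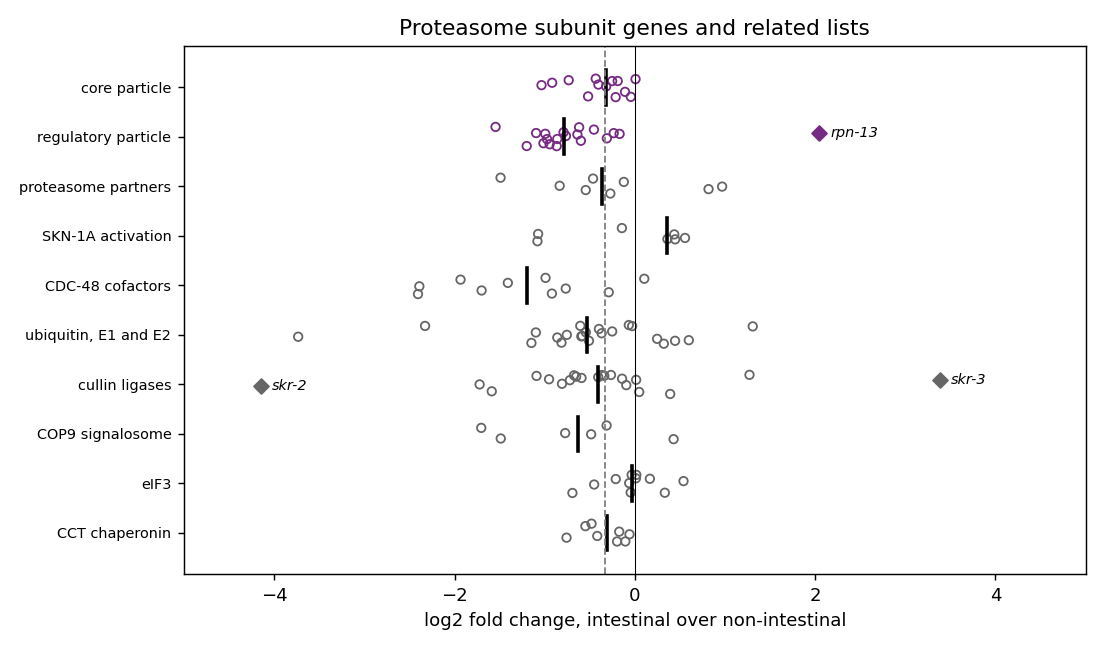
Log2 ratio (intestinal over non-intestinal) of each tested gene of the core and regulatory particles and of the 8 related lists. Filled diamonds are called genes, open circles are uncalled genes, black bars are list medians and the dashed line marks −0.34, the median of all tested genes. The called genes are rpn-13, skr-2 and skr-3.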

How the data were processed

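The authors deposited 1 table of raw counts per gene and library, with no normalization. STARsolo 2.7.10a and the builds WBcel235 and ce11 are named in the submitters' processing notes. The annotation, strand setting and use of molecular identifiers are not given in the sources used here. Intervals cover counting error and the spread between libraries, and floors cover counting error only. Neither covers errors in assigning reads to genes. The labels call the libraries of a group biological replicates and name no separate cultures or animals. The p-values therefore set the difference between the groups against the spread between these 6 libraries only.

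Of 15472 rows, 14605 were worm genes, and RIT (825), spike-in (41) and reporter rows, 0.377% to 0.796% of counts, were left out. Symbols for 14387 rows came from RefSeq WBcel235 and positions from the Ensembl annotation of WBcel235. Counts were fitted with edgeR 4.0.16 in R 4.3.3 (quasi-likelihood, robust, TMM, group as the only term, filterByExpr with a minimum count of 10 and total of 15), leaving 9203 genes. Calls used a Benjamini-Hochberg adjusted p under 0.05. Standard errors and 95% intervals were derived from the F statistic. CPM used TMM-scaled totals.

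Alternatives were RLE scaling, library totals, other filters, DESeq2 1.42.0, no robust estimation, a replicate block, equal depth, each library left out and a threshold of 0.01. After seeing the data, 2 more were added: leaving out replicate 3 of both groups and leaving out rpn-13.

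Same-numbered libraries deviated together from their group means (correlations across genes of 0.278, 0.157 and 0.279), above the 0.1 set for pairing. Between libraries of different numbers the correlations ran from −0.256 to 0.0695. Replicate 3 was the shallowest library of both groups, and the part of depth in these correlations was not tested. The numbers were therefore taken as pairs where same-numbered libraries were compared and in the replicate block, but not in the main fit. Pairing is a pattern of these data that the labels do not state. The members and lists were chosen with earlier results of these data known. Values in each library are given for called genes and for the 3 highest and 3 lowest members by log2 fold change. The SKN-1A list is named whole. Other genes named with values, among them pas-3, pbs-1, pbs-2, pbs-5, rpn-2, rpn-6.1, rpn-10, skr-1, rad-23, ubh-4, ubql-1 and csn-3, were chosen after their values were seen. Listed genes without a row were not analysed here.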

Additional observations from a re-analysis of the deposited data

How the results depend on the processing

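The total of 1949 called genes was 3280 by DESeq2, 842 at a threshold of 0.01 and 986 to 1913 when 1 library was left out, lowest without intestinal replicate 1. The count of called proteasome genes was 1, and it was 5 under library totals alone, 2 under the replicate block, 0 at the threshold of 0.01 and 0 to 1 when 1 library was left out. Related genes called rose from 2 to 11 under library totals alone, 10 by DESeq2 and 4 both without a filter and under the replicate block. The block changed no other member's call.

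The core median log2 fold change of −0.32 was −0.81 under library totals alone and ranged from −0.58 to 0.11 when 1 library was left out, while the median of all tested genes was −0.84 under library totals alone and ranged from −0.48 to 0.06. Relative to that median the core was 0.02, and 0.03 under library totals alone. The regulatory median of −0.79 was −1.27 under library totals alone, −0.53 without replicate 3 of both groups, and −0.89 to −0.42 when 1 library was left out. Relative to the median of all tested genes the regulatory particle was −0.45, with −0.43 under library totals alone and −0.34 without replicate 3 of both groups. The difference between the groups in the log2 ratio of summed core to summed regulatory CPM was −0.54, but 0.22 without rpn-13 and 0.32 as a mean of log2 CPM over members, and −0.71 to −0.34 when 1 library was left out.

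Fitted signs were not stable for 12 members, whose values in the main fit ran from −0.64 for rpn-5 to 0.01 for pas-7. Of 32 members, 20 kept their sign under each alternative that gave them a value. The log2 fold change of pas-3 was 0.44 under the replicate block and 0.015 by DESeq2. For pas-5 it was 0.046 under RLE, 0.026 under the block, 0.044 by DESeq2, 0.042 at equal depth and 0.18 without replicate 3 of both groups, where pas-6 had 0.011 and pbs-5 had 0.19. For pas-7 it was −0.46 under library totals alone. When 1 library was left out, signs changed for pas-2 (−0.59 to 0.0498), pas-3 (−0.28 to 1.82), pas-5 (−0.26 to 0.47), pas-6 (−0.45 to 0.29), pas-7 (−0.23 to 0.70), pbs-3 (−0.57 to 0.45), pbs-5 (−0.78 to 0.18), pbs-6 (−0.37 to 0.56), rpn-1 (−0.47 to 0.77), rpn-3 (−0.23 to 0.38), rpn-5 (−0.87 to 0.017) and rpn-8 (−0.50 to 0.55). Members other than rpn-13, rpt-1, pbs-1, rpn-2, rpn-10 and rpn-11 kept their side of the threshold in each fit. The causes were not tested. The counts of pas-3 were low in each library, and it failed the filter on low counts at equal depth and without intestinal replicate 1, intestinal replicate 2 or non-intestinal replicate 2. In intestinal replicate 3 there were 18 counts of rpn-12, 38 of rpn-9 and 15 of rpn-6.2.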
